A study of Mus musculus with 14 samples.

Results

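Mouse hepatocytes labelled Yap-/- and cultured for 3 weeks (the BM 3W Yap-/- libraries) were compared with freshly isolated hepatocytes that carry no such label (the FH libraries), to describe what culture changes in hepatocyte RNA when Yap is missing. The comparison rests on 4 of the 14 libraries of the series, 2 in each group, chosen by their labels. The series concerns whether limiting tension-driven activation of YAP keeps hepatocyte functions in culture. All 14 libraries are poly(A) RNA-seq of C57BL/6 cells with liver as the stated source. A further 4 libraries are drawn on where a result turns on them, namely fresh hepatocytes labelled Yap-/- (FH Yap-/-) and cultured hepatocytes without that label (BM 3W). The remaining 6 libraries (BM 1D, BM 3D and LBDXL 3W) are compared with nothing here, but share in the filter on low counts, the scaling and the estimate of the spread. BM and LBDXL are culture names that the labels do not spell out. The labels give neither sex, age, culture medium, the way the Yap allele was removed, nor whether the 2 libraries of a group come from separate animals. The p-values therefore describe the variation among these particular libraries, which may be technical.

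YAP, encoded by Yap1, is a transcriptional coactivator held in check by the Hippo kinases and by a soft or low-tension environment. On stiff substrates it enters the nucleus and acts with TEAD transcription factors on genes for cytoskeleton, matrix and growth. Hepatocytes taken out of the liver are known to lose metabolic functions and to gain a spread, stress-fibre-rich form. TAZ, encoded by Wwtr1, is the paralog of YAP and uses the same TEAD partners.

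Levels are CPM, counts relative to the library's total after TMM scaling, and are compared between libraries and not between genes. "Rose" and "fell" are used only for genes past a Benjamini-Hochberg adjusted p of 0.05 over 14100 genes in edgeR's quasi-likelihood test. Log2 fold changes are given with their standard error and refer to BM 3W Yap-/- minus FH unless another comparison is named. A gene with 0 counts in a group gets no fitted fold but a lower bound, computed with 3 counts in each library of that group.

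The targeted gene was low in the libraries labelled Yap-/-. Yap1 (chr9:7931999-8004638, GRCm38.p6) was at 87.6 and 97.6 CPM in FH, 23.1 and 26.5 in FH Yap-/- and 6.66 and 7.75 in BM 3W Yap-/-. BM 3W libraries held 80.2 and 95.5 CPM. Each Yap-/- library lay below each library without that label, and the cultured Yap-/- libraries lay below the fresh ones. The log2 fold change to FH was -3.68 ± 0.21 (adjusted p = 2.97e-06). Residual reads remained in each Yap-/- library, and their source was not tested. Wwtr1 was at 44.2 and 39.7 CPM in FH and 49.6 and 33.4 CPM in BM 3W Yap-/-, with overlapping groups, and did not pass the test (adjusted p = 0.977).

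Both FH Yap-/- libraries and 1 library of LBDXL 3W stand apart from the others in Y-linked genes, which were chosen after their values were seen. Ddx3y was at 160.2 and 155 CPM in FH, 77.6 and 71.5 in BM 3W and 71.3 and 66.7 in BM 3W Yap-/-, whereas both FH Yap-/- libraries had 0. The sum of Ddx3y, Eif2s3y, Kdm5d and Uty was 311.9 and 308.1 CPM in FH, 199.7 and 180.9 in BM 3W Yap-/-, and 0.06901 and 0 CPM in FH Yap-/-, the latter being 1 count and 0 counts. LBDXL 3W, which enters no comparison here, was split, with 0 CPM in 1 library and 214.3 in the other. In FH Yap-/- against FH the Y-linked difference cannot be told apart from genotype, and in BM 3W Yap-/- against FH Yap-/- it cannot be told apart from culture. The main comparison of BM 3W Yap-/- with FH has Y-linked RNA in all 4 libraries.

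**Figure D1:**
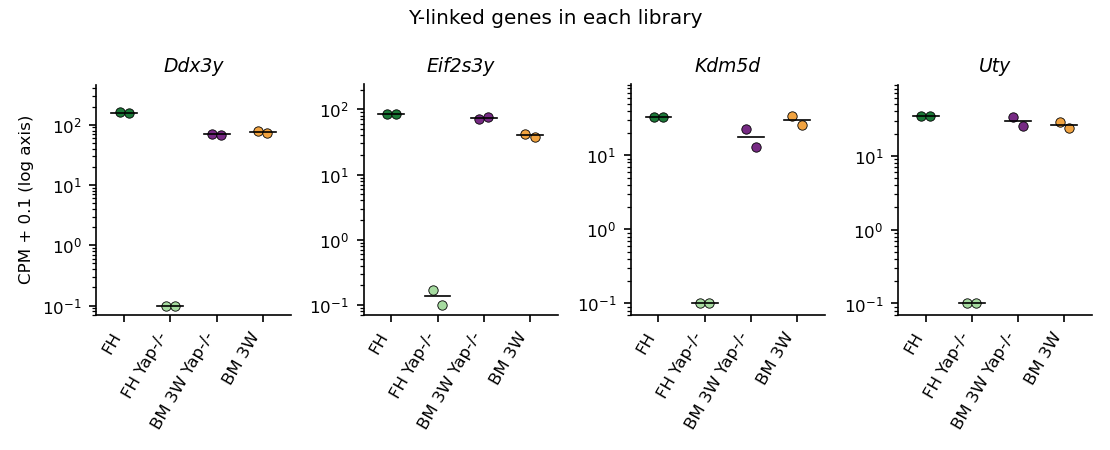
Level of 4 Y-linked genes in each library, as CPM plus 0.1 on a log axis. Points are single libraries and bars are means of 2. Both FH Yap-/- libraries sit at or near 0, and the libraries of the other 3 groups sit far above them.

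Depth was 19353371 and 19494797 counts in FH, while the cultured Yap-/- libraries had 20353562 and 19244825. TMM factors were 0.65 in both FH libraries and 1.01 and 1.03 in BM 3W Yap-/-. The 2 FH libraries were close to each other (chi-square per degree of freedom 5.49), and those of BM 3W Yap-/- were further apart (68).

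A large share of genes differed between BM 3W Yap-/- and FH. These groups differ in culture and in genotype together, and the comparison alone cannot tell these apart. Of 14100 genes tested, 3130 rose (22.2%) and 2502 fell (17.7%). Among these, 1826 rose by more than 2 and 939 fell by more than 2 on the log2 scale. With 2 libraries in each group, most genes did not overlap between the groups. Of the 14100, 5989 lay higher and 4899 lower in both cultured libraries than in both fresh ones. A lack of overlap is therefore no sign of a change by itself. The median log2 fold change of all genes was 0.13, and 0.07 with genes at 0 counts in a group set to their bound. Scaling by total counts alone moved that median to 0.79 and gave 5836 rises and 1268 falls, so that 82.2% of calls were rises against 55.6% under TMM. With FPKM the share of rises was 80.2 to 81.9%. All changes below are relative to the TMM scaling. Without 1 library at a time, the number of calls lay between 3336 (without FH 2) and 4551, and without FH 1 it was 3411.

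Among the largest rises were genes with hardly a read in fresh cells. Cpe, the carboxypeptidase that trims peptide hormones, was at 0.0795 and 0 CPM in FH and 567 and 767 CPM in BM 3W Yap-/-, a log2 change of 13.82 ± 1.54 (adjusted p = 0.000109). Tubb2b, a beta-tubulin of developing neurons, was at 0 and 0.0791 CPM in FH and 159 and 216 CPM in BM 3W Yap-/-, with an adjusted p of 0.000925. In both genes each cultured library lay far above each fresh one. Several others had 0 counts in both FH libraries. The muscle alpha-actinin gene Actn3 reached 34.8 and 36.8 CPM (at least 151-fold higher), and the kinesin gene Kif1a 32.8 and 21.4 CPM (at least 114-fold). Nrg1, which encodes a ligand of ERBB receptors, reached 40.7 and 25.2 CPM (at least 138-fold), and Dlk1, a marker of fetal hepatoblasts, 20.6 and 25.9 CPM (at least 97.6-fold). All 4 thus went from no count to above 20 CPM in both cultured libraries.

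Among the largest falls were liver-specific enzymes, transporters and secreted proteins. Cyp2e1, the ethanol-oxidising P450 of pericentral hepatocytes, was at 19965 and 21058 CPM in FH and 1.7 and 1.81 CPM in BM 3W Yap-/-, a log2 change of -13.51 ± 1.84 (adjusted p = 0.000316). Sult2a8, a sulfotransferase, was at 2112 and 2115 CPM in FH and 0.437 and 0.352 CPM in BM 3W Yap-/- (-12.36 ± 1.06). Both cultured libraries held a few reads of genes that were among the strongly expressed ones in both fresh libraries. Car1, the carbonic anhydrase of red cells and other tissues, went from 17 and 20.1 CPM to 0 counts (at least 125-fold lower). Hsd3b5, a male-biased steroid dehydrogenase, was at 411 and 422 CPM in FH and 0 and 0.0503 CPM in BM 3W Yap-/- (-13.71 ± 0.75), and was at 0.207 and 0.0800 CPM in FH Yap-/-. That gene was thus already near 0 in the fresh Yap-/- libraries that lack Y-linked RNA.

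**Figure D2:**
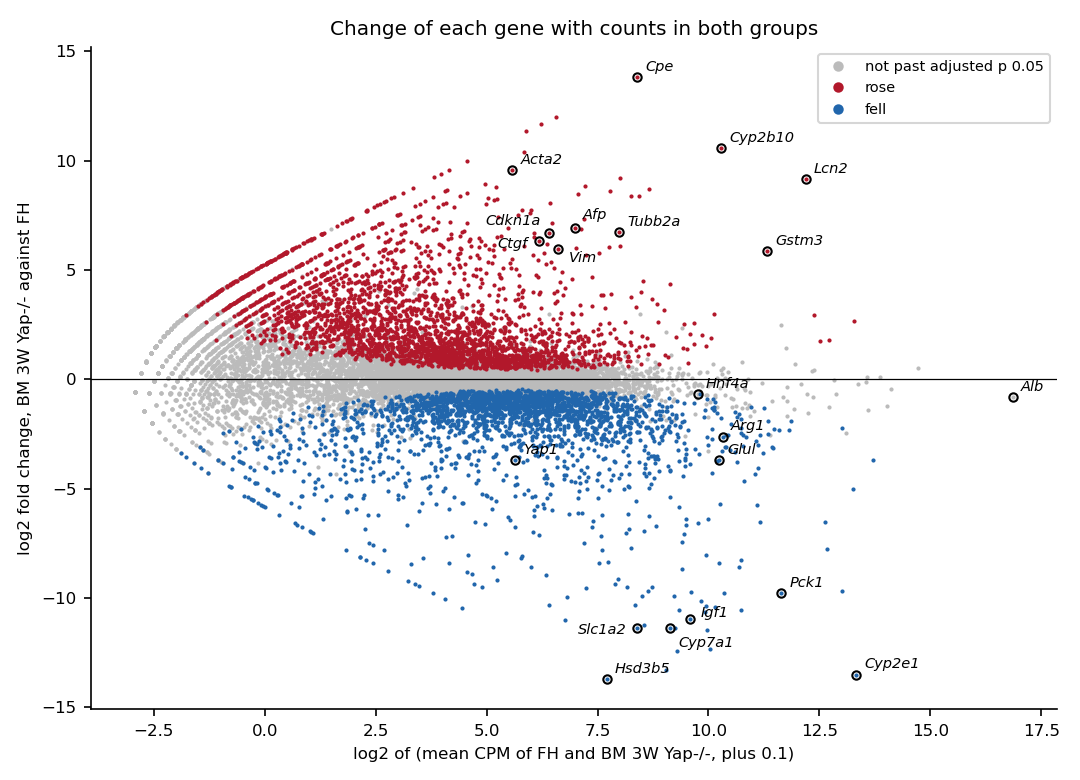
Log2 fold change of BM 3W Yap-/- against FH (vertical axis) against mean level (log2 of CPM plus 0.1, horizontal axis) for the 13130 tested genes with counts in both groups; 970 genes at 0 in a group are not drawn. Red and blue points rose and fell, and Alb and Hnf4a lie among the grey points that did not pass.

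Targets of the pericentral Wnt signal were among the most reduced. Wnt ligands from the central vein endothelium activate beta-catenin in the neighbouring hepatocytes, which then make glutamine and express a set of P450 enzymes. Of 26 tested members of the pericentral list, 18 fell, 1 rose and 7 did not pass, with a median log2 fold change of -3.38 (-2.99 with genes at 0 at their bound). Glul, glutamine synthetase, was at 2322 and 2129 CPM in FH and 192 and 149 CPM in BM 3W Yap-/-, a log2 change of -3.70 ± 0.33 (adjusted p = 3.65e-05). Slc1a2, the glutamate transporter of the same cells, was at 689 and 654 CPM in FH and 0.194 and 0.302 CPM in BM 3W Yap-/- (-11.37 ± 0.44, adjusted p = 2.77e-07). Lgr5, the R-spondin receptor, was at 12.9 and 10.1 CPM in FH and 0.146 and 0.151 CPM in BM 3W Yap-/- (-6.21 ± 0.66, adjusted p = 0.000126). In all 3 genes the groups were far apart, and Slc1a2 and Lgr5 were down to a few reads.

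Other members of the list moved by different amounts. Znrf3, a ubiquitin ligase that removes Wnt receptors, was at 25.2 and 22 CPM in FH and 6.17 and 5.78 CPM in BM 3W Yap-/- (-1.98 ± 0.24, adjusted p = 0.000166). Lect2, a secreted protein under beta-catenin control, was at 161 and 162 CPM in FH and 3.84 and 3.57 CPM in BM 3W Yap-/- (-5.44 ± 0.52, adjusted p = 5.22e-05). The P450 gene Cyp2c50 was at 1943 and 2045 CPM in FH and 0.729 and 0.654 CPM in BM 3W Yap-/- (-11.48 ± 1.89, adjusted p = 0.000931). The member that rose was Gstm3, a glutathione transferase, at 86.4 and 85.9 CPM in FH and 4005 and 6071 CPM in BM 3W Yap-/- (5.87 ± 0.74, adjusted p = 0.000213). Cyp1a2, the caffeine-oxidising P450, was at 1580.4 and 1539 CPM in FH and 499.8 and 442 CPM in BM 3W Yap-/-. It did not pass (log2 fold change -1.73 ± 1.18, adjusted p = 0.265), and its groups did not overlap, as with most genes tested. Pericentral P450 genes thus kept different fractions of their fresh level.

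Bile acid synthesis and uptake were reduced. Cyp7a1 carries out the rate-limiting step from cholesterol in the classic pathway and Cyp7b1 acts in the alternative one. Of 28 tested members of the bile acid list, 20 fell and 2 rose (median log2 fold change -2.63). Cyp7a1 was at 1109.8 and 1147 CPM in FH and 0.535 and 0.302 CPM in BM 3W Yap-/-, a log2 change of -11.37 ± 1.67 (adjusted p = 0.000466). Cyp7b1 was at 792 and 799 CPM in FH and 8.75 and 12.1 CPM in BM 3W Yap-/- (-6.26 ± 0.81, adjusted p = 0.000251), and at 36 and 36.3 CPM in FH Yap-/-. Cyp7a1 was down to a few reads in culture, while most of the distance for Cyp7b1 was already present between the fresh groups. Those groups also differ in Y-linked RNA, which cannot be told apart from genotype there. Klb, the co-receptor for the gut hormone FGF15 that restrains this pathway, was at 63.6 and 60.1 CPM in FH and 0.535 and 0.704 CPM in BM 3W Yap-/- (-6.63 ± 0.68, adjusted p = 7.15e-05). The racemase gene Amacr, which acts on the side chain, was at 190.2 and 193 CPM in FH and 19.8 and 31 CPM in BM 3W Yap-/- (-2.91 ± 0.42, adjusted p = 0.000453).

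The bile acid genes that rose were basolateral efflux pumps, the ABC transporters that export organic anions back to blood. Abcc4 was at 1.67 and 0.871 CPM in FH and 159 and 105 CPM in BM 3W Yap-/- (6.69 ± 1.24, adjusted p = 0.0018). Abcc3 was at 332 and 314 CPM in FH and 717 and 699 CPM in BM 3W Yap-/- (1.13 ± 0.35, adjusted p = 0.0254), and its call was lost without any single one of the 4 libraries (adjusted p = 0.0761 to 0.139). Both pumps lay higher in each cultured library than in each fresh one. The uptake carrier gene Slco1a1 fell, from 1219 and 1194 CPM in FH to 0.437 and 0.453 CPM (-11.38 ± 0.98, adjusted p = 3.04e-05), with 29.5 and 29.5 CPM in FH Yap-/-. Slco1a1 and Cyp7b1 are also on the list of sex-biased genes, and the Y-linked difference of FH Yap-/- applies to both.

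Other transporters showed the same mix. Of 36 organic ion and sterol transporters tested, 20 fell and 5 rose (median -1.93). Slc22a7, an organic anion transporter of hepatocytes, was at 61.2 and 56.8 CPM in FH and 0.0486 and 0.101 CPM in BM 3W Yap-/- (-9.52 ± 0.85, adjusted p = 8.47e-05). Abcc5, a cyclic nucleotide exporter, was at 2.7 and 1.82 CPM in FH and 49.9 and 41.1 CPM in BM 3W Yap-/- (4.33 ± 0.37, adjusted p = 3.05e-05). The broadly expressed carrier gene Slco3a1 was at 3.1 and 1.5 CPM in FH and 41.3 and 37.8 CPM in BM 3W Yap-/- (4.10 ± 0.49, adjusted p = 0.000161). The hepatocyte carrier was thus low in culture, and the latter pair, found in many cell types, were high.

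Fatty acid oxidation fell in most members of its list. Mitochondria and peroxisomes shorten fatty acids under the control of the nuclear receptor PPAR-alpha. Of 39 tested members, 31 fell, 0 rose and 8 did not pass, with a median log2 fold change of -1.90. Cpt1a, which admits acyl chains into mitochondria, was at 1247 and 1223 CPM in FH and 181 and 142 CPM in BM 3W Yap-/- (-2.93 ± 0.37, adjusted p = 0.000203). Etfdh, which passes the electrons on, was at 384 and 419 CPM in FH and 112 and 104 CPM in BM 3W Yap-/- (-1.90 ± 0.26, adjusted p = 0.000301). Decr2, the peroxisomal dienoyl-CoA reductase, was at 380.0 and 371 CPM in FH and 31.8 and 30.3 CPM in BM 3W Yap-/- (-3.60 ± 0.29, adjusted p = 2.26e-05), and Ppara itself was at 713 and 717 CPM in FH and 41.2 and 31.8 CPM in BM 3W Yap-/- (-4.29 ± 0.62, adjusted p = 0.000427). For each of these genes the cultured libraries were below the fresh ones without overlap, and even so they stayed clearly expressed, in contrast to the thioesterase gene Acot3 at 1.21 and 1.01 CPM against 71.4 and 66.2 CPM in FH.

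Nuclear genes of oxidative phosphorylation were also lower, 31 of 54 having fallen and 0 risen (median -1.04). Sdha, a subunit of complex II, was at 923 and 890.1 CPM in FH and 238 and 243 CPM in BM 3W Yap-/- (-1.91 ± 0.28, adjusted p = 0.000422), and Ndufs1 of complex I at 245 and 242 CPM in FH and 61.7 and 67.3 CPM in BM 3W Yap-/- (-1.92 ± 0.28, adjusted p = 0.000444). That count depended on the scaling, with 8 falls under total counts and 11 to 14 with FPKM. It was 19 without BM 3W Yap-/- 1 and 20 without FH 2.

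Amino acid breakdown and the urea cycle were reduced, in a graded way. Periportal hepatocytes turn ammonia into urea through Cps1, Ass1 and Arg1, and degrade amino acids that feed glucose synthesis. Of 45 tested members, 36 fell, 1 rose and 8 did not pass (median -2.63). Arg1, arginase, was at 2097 and 2300.0 CPM in FH and 357 and 356 CPM in BM 3W Yap-/- (-2.63 ± 0.31, adjusted p = 0.000161), and Ass1, argininosuccinate synthase, at 5145 and 5088 CPM in FH and 1068 and 979 CPM in BM 3W Yap-/- (-2.32 ± 0.53, adjusted p = 0.00548). Cps1, which makes carbamoyl phosphate, was at 13502 and 13421 CPM in FH and 3136 and 2691 CPM in BM 3W Yap-/- (-2.21 ± 0.80, adjusted p = 0.0475), and its call was lost without any single library of the 2 groups (adjusted p = 0.114 to 0.194), under total counts (0.0877) and with FPKM. These urea cycle genes stayed strongly expressed in both cultured libraries.

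Other enzymes of amino acid breakdown fell as well. Oat, ornithine aminotransferase, was at 1443 and 1427 CPM in FH and 11.6 and 16.9 CPM in BM 3W Yap-/- (-6.65 ± 0.85, adjusted p = 0.000223). Tat, tyrosine aminotransferase, was at 3979 and 3961 CPM in FH and 510.4 and 493 CPM in BM 3W Yap-/- (-2.98 ± 0.60, adjusted p = 0.00285). Both had lower values in both cultured libraries than in either fresh one. The 1 member that rose was Gldc, of the glycine cleavage system, at 151 and 154 CPM in FH and 445 and 463 CPM in BM 3W Yap-/- (1.57 ± 0.49, adjusted p = 0.0269), and that call was lost without any single library (adjusted p = 0.0754 to 0.123).

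Gluconeogenesis fell at its key steps. Pck1, the hormone-controlled entry enzyme, was at 6426 and 6275 CPM in FH and 7.05 and 7.44 CPM in BM 3W Yap-/-, a log2 change of -9.77 ± 1.08 (adjusted p = 0.000102). Fbp1, fructose bisphosphatase, was at 1040.3 and 1084 CPM in FH and 46.2 and 67.8 CPM in BM 3W Yap-/- (-4.22 ± 0.65, adjusted p = 0.000632). G6pc, which releases free glucose, was at 786 and 749 CPM in FH and 68.4 and 66.1 CPM in BM 3W Yap-/- (-3.51 ± 0.84, adjusted p = 0.00706), a call lost without BM 3W Yap-/- 2 (adjusted p = 0.0583). The cultured libraries were close to each other and far below the fresh ones for Pck1 and G6pc. Over the list, 14 of 24 tested members fell and 1 rose (median -1.95). Ppargc1a, the coactivator that fasting induces, was at 29 and 32.4 CPM in FH and 4.71 and 2.06 CPM in BM 3W Yap-/- (-3.18 ± 0.42, adjusted p = 0.000279), and Foxo1, the insulin-restrained factor, at 173 and 165 CPM in FH and 60.4 and 43.4 CPM in BM 3W Yap-/- (-1.70 ± 0.28, adjusted p = 0.000927). The member that rose was Pck2, the mitochondrial isoenzyme of Pck1, at 1.35 and 3.24 CPM in FH and 13 and 29.4 CPM in BM 3W Yap-/- (3.20 ± 0.76, adjusted p = 0.00703), a call lost without BM 3W Yap-/- 2 (0.0506) or FH 1 (0.0667).

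Among periportal genes, which share members with the lists above, 15 of 24 fell and 2 rose (median -2.18). Pigr, the receptor that carries antibodies into bile, was at 3369.7 and 3401 CPM in FH and 11.8 and 9.86 CPM in BM 3W Yap-/- (-8.29 ± 0.93, adjusted p = 0.00011). Cyp2f2, a P450 typical of the portal zone, was at 2656 and 2605 CPM in FH and 789 and 723 CPM in BM 3W Yap-/- (-1.80 ± 0.66, adjusted p = 0.0491), and this call was lost without any single library (adjusted p = 0.125 to 0.187). Pigr was thus far lower in culture, whereas Cyp2f2 stayed strongly expressed. Periportal and pericentral lists both fell in majority.

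The promoter of Pck1 is shown because this gene had the largest fall among the gluconeogenic enzymes named here. It holds GTTAAT, a core of the binding sequence of the hepatocyte factor HNF1, 192 bases before the start. The match is on the opposite strand, so the capitals read ATTAAC. Sequences are from RefSeq on GRCm38.p6, 5′ to 3′, and end at the base before the annotated start. The window is chr2:173152823-173153072 on the plus strand.
Pck1: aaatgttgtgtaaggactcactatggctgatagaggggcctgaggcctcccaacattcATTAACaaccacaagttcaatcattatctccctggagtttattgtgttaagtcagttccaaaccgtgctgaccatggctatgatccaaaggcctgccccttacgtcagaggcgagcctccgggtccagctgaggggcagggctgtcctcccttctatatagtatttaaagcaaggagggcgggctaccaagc
Both strands of the 32851 RefSeq windows of 300 bases were searched, and 7.1% hold GTTAAT. A match is a description of the letters and not a binding site.

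Drug metabolism changed gene by gene. Phase I enzymes such as P450s and carboxylesterases introduce or expose reactive groups, and phase II enzymes attach glucuronate, sulfate or glutathione. Of 69 phase I genes tested, 39 fell and 6 rose (median -1.95, or -1.80 with genes at 0 at their bound). Ces3a, a carboxylesterase, was at 3413 and 3400.1 CPM in FH and 1.17 and 3.32 CPM in BM 3W Yap-/- (-10.57 ± 1.00, adjusted p = 4.97e-05), and its neighbour Ces3b at 1269.7 and 1239.6 CPM in FH and 0.243 and 0.201 CPM in BM 3W Yap-/- (-12.42 ± 1.22, adjusted p = 5.82e-05). The P450 gene Cyp2c44 was at 884 and 906 CPM in FH and 11.3 and 5.53 CPM in BM 3W Yap-/- (-6.73 ± 0.87, adjusted p = 0.000242). All 3 were low in culture and strongly expressed in fresh cells. Without BM 3W Yap-/- 2 the list gave 25 falls and 4 rises.

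The phase I genes that rose included Cyp2b10, the classic target of the receptor CAR, at 1.91 and 1.35 CPM in FH and 2388 and 2557 CPM in BM 3W Yap-/- (10.56 ± 1.02, adjusted p = 5.27e-05). It was at 14.8 and 13.3 CPM in FH Yap-/- and 0.274 and 1.2 in BM 3W, so the high level was seen in BM 3W Yap-/- alone among these 4 groups. Cyp3a11, the major PXR-responsive P450, was at 949 and 982 CPM in FH and 6038 and 4784 CPM in BM 3W Yap-/- (2.49 ± 0.93, adjusted p = 0.0536) and at 5703 and 5757 CPM in FH Yap-/-. It did not pass here, but passed in 8 alternatives, with DESeq2, FPKM and total counts among them. Its groups did not overlap, as with most genes tested. Nr1i3, which encodes CAR, fell from 276 and 249 to 6.22 and 8.95 CPM (-5.11 ± 0.77, adjusted p = 0.000553). Reads of the Cyp2b, Cyp2c, Cyp3a, Ces3, Ugt, Sult and Gstm families can be split between close paralogs, which makes values of single members uncertain.

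In phase II, 25 of 49 fell and 7 rose (median -1.03, or -0.96 with genes at 0 at their bound). Without BM 3W Yap-/- 2 these were 16 and 6. Ugt2b1, a glucuronosyltransferase, was at 1919 and 1943 CPM in FH and 0.777 and 1.61 CPM in BM 3W Yap-/- (-10.66 ± 1.05, adjusted p = 5.9e-05), and Glyat, which conjugates glycine, at 564 and 537 CPM in FH and 42 and 37.6 CPM in BM 3W Yap-/- (-3.79 ± 0.31, adjusted p = 2.58e-05). Of the 7 that rose, 6 were glutathione transferases and the other was Sult2a1. Gstm1 was at 1227 and 1268 CPM in FH and 9045 and 9909.5 CPM in BM 3W Yap-/- (2.93 ± 0.66, adjusted p = 0.00524), and Gstp2 at 0.636 and 0.475 CPM in FH and 33.7 and 63.7 CPM in BM 3W Yap-/- (6.44 ± 0.69, adjusted p = 8.48e-05). Ugt2b1 and Glyat were thus below, and Gstm1 and Gstp2 above, their fresh level in both cultured libraries.

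Several abundant secreted proteins did not pass the test while others fell. Of 47 plasma proteins tested, 16 fell, 2 rose and 29 did not pass (median -1.31). Alb, albumin, was at 155088 and 149910.0 CPM in FH and 93191 and 78189.5 CPM in BM 3W Yap-/- (log2 fold change -0.83 ± 1.07, adjusted p = 0.56). Apoa1, the HDL apolipoprotein, was at 12135 and 12958 CPM in FH and 11531 and 11261 CPM in BM 3W Yap-/- (-0.14 ± 0.86, adjusted p = 0.918), and Serpina1b, an antitrypsin, at 7370.0 and 7419 CPM in FH and 7653 and 6882 CPM in BM 3W Yap-/- (-0.03 ± 0.57, adjusted p = 0.984). Alb was lower in both cultured libraries, and the others lay near their fresh level. These 3 did not pass, Apoa1 and Serpina1b changed sign between scalings, and a missed threshold does not show that levels were equal. Trf, transferrin, at 22125 and 22194 CPM in FH and 27391 and 35675 CPM in BM 3W Yap-/- (0.51 ± 0.64, adjusted p = 0.552), did not pass either.

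Among those that fell, Igf1, the growth hormone-driven growth factor, was at 1543 and 1533 CPM in FH and 0.923 and 0.604 CPM in BM 3W Yap-/- (-10.96 ± 1.14, adjusted p = 7.46e-05). Apoa5, which lowers plasma triglyceride, was at 1355 and 1399.9 CPM in FH and 8.46 and 11.9 CPM in BM 3W Yap-/- (-7.08 ± 1.25, adjusted p = 0.00136), and Saa4, a constitutive serum amyloid A, at 846 and 832 CPM in FH and 77.5 and 71.6 CPM in BM 3W Yap-/- (-3.49 ± 0.48, adjusted p = 0.000314). The members that rose are acute phase proteins. Hp, haptoglobin, was at 3081 and 3040.3 CPM in FH and 7739 and 13213 CPM in BM 3W Yap-/- (1.78 ± 0.49, adjusted p = 0.0151), and Orm2, an orosomucoid, at 59.3 and 61.9 CPM in FH and 695 and 506 CPM in BM 3W Yap-/- (3.31 ± 1.04, adjusted p = 0.0263). Hp lost its call without any of 3 single libraries (adjusted p = 0.0903 to 0.105) and Orm2 without any of 4 (0.0563 to 0.130). Without BM 3W Yap-/- 2 the list gave 9 falls and 0 rises, and with the 4 compared libraries alone 35 falls and 6 rises.

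The promoter of Alb, shown for a gene that did not pass, holds GTTAAT 32 bases before the start, in capitals (chr5:90460620-90460869, plus strand).
Alb: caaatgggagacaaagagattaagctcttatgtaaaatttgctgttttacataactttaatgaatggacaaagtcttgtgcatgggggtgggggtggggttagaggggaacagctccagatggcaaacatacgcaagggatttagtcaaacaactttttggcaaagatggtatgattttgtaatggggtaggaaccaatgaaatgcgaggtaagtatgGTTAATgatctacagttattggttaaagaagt
Among plasma proteins with a window, 13 of 39 hold these letters (33.3%), 4 of the 13 that fell and 9 of the 25 that did not pass.

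Clotting and complement factors fell without a rise, 21 of 39 tested (median -1.48). C9, a pore-forming complement protein, was at 1953 and 2035 CPM in FH and 26.5 and 21.1 CPM in BM 3W Yap-/- (-6.39 ± 0.86, adjusted p = 0.0003), and C8a at 1945 and 1962 CPM in FH and 8.8 and 5.99 CPM in BM 3W Yap-/- (-8.04 ± 1.56, adjusted p = 0.00233). Klkb1, plasma prekallikrein, was at 792 and 820.2 CPM in FH and 29.6 and 28.8 CPM in BM 3W Yap-/- (-4.79 ± 0.80, adjusted p = 0.000969). Each was lower in both cultured libraries by a wide margin. The count was 13 without BM 3W Yap-/- 2 and 35 with the compared libraries alone.

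Hepatocyte transcription factors were lower in part. Of 32 tested, 16 fell, 1 rose and 15 did not pass (median -0.92). Hnf4a, the central hepatocyte nuclear receptor, was at 1065 and 1057 CPM in FH and 742 and 589.5 CPM in BM 3W Yap-/-. It did not pass (-0.67 ± 0.31, adjusted p = 0.108), and its groups did not overlap, as with most genes tested. It passed in 3 alternatives, DESeq2's test (adjusted p = 0.0365) among them. Cebpa, which sustains metabolic genes, was at 307 and 278 CPM in FH and 44.9 and 76 CPM in BM 3W Yap-/- (-2.27 ± 0.39, adjusted p = 0.00121). Esr1, the oestrogen receptor, was at 47 and 44.7 CPM in FH and 2.43 and 1.91 CPM in BM 3W Yap-/- (-4.40 ± 0.30, adjusted p = 6.84e-06). Without BM 3W Yap-/- 2 the list gave 9 falls.

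**Figure D3:**
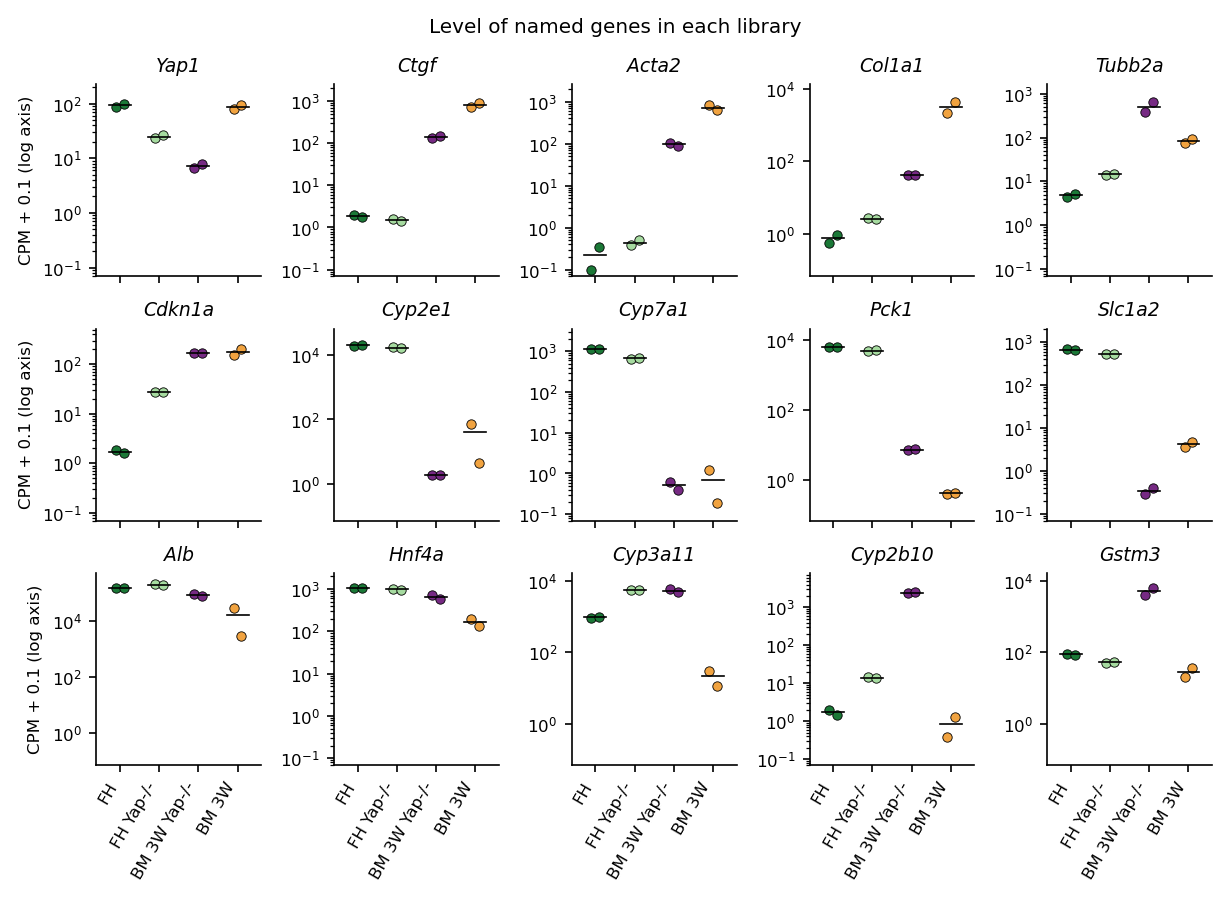
Level of 15 genes in each library of 4 groups, as CPM plus 0.1 on log axes. Points are single libraries and bars are means of 2. Ctgf, Acta2 and Col1a1 in BM 3W Yap-/- lie between fresh cells and BM 3W, Cyp7a1 and Pck1 are far below fresh levels in both cultures, and Cyp2b10 and Gstm3 are high in BM 3W Yap-/- alone.

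Cytoskeletal genes rose in BM 3W Yap-/-. Of 22 tubulin and intermediate filament genes tested, 19 rose and 0 fell (median 4.24, or 3.95 with genes at 0 at their bound). Tubb2a, a beta-tubulin, was at 4.29 and 5.14 CPM in FH and 381 and 627 CPM in BM 3W Yap-/- (6.74 ± 0.38, adjusted p = 2.97e-06). Tubb4b was at 43.6 and 41.7 CPM in FH and 571 and 765 CPM in BM 3W Yap-/- (3.97 ± 0.32, adjusted p = 2.06e-05), and Tuba1c, an alpha-tubulin, at 30.9 and 28.2 CPM in FH and 250.4 and 350.2 CPM in BM 3W Yap-/- (3.35 ± 0.30, adjusted p = 3.48e-05). Vim, the intermediate filament protein vimentin of mesenchymal and spread cells, was at 3.26 and 2.93 CPM in FH and 180.4 and 205 CPM in BM 3W Yap-/- (5.96 ± 0.67, adjusted p = 0.000119). Each cultured library was above each fresh one in all 4 genes.

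Actin genes moved the same way, 45 of 56 having risen and 1 fallen (median 2.50, or 2.42 at the bound). Acta2, smooth muscle actin, was at 0 and 0.237 CPM in FH and 105 and 85.6 CPM in BM 3W Yap-/- (9.57 ± 0.80, adjusted p = 2.64e-05). Tagln, an actin cross-linker of contractile cells, was at 1.27 and 1.03 CPM in FH and 67.2 and 71.9 CPM in BM 3W Yap-/- (5.91 ± 0.32, adjusted p = 2.97e-06), and its relative Tagln2 at 8.27 and 5.22 CPM in FH and 175 and 228 CPM in BM 3W Yap-/- (4.90 ± 0.32, adjusted p = 6.17e-06). Anxa1, an annexin that binds membranes and actin, was at 0.636 and 1.03 CPM in FH and 72.4 and 86.7 CPM in BM 3W Yap-/- (6.57 ± 0.52, adjusted p = 2.06e-05), and S100a11, its calcium-binding partner, at 0.875 and 0.633 CPM in FH and 291 and 244 CPM in BM 3W Yap-/- (8.46 ± 0.82, adjusted p = 5.48e-05). In fresh cells these genes were low, Tagln2 the least so, and in both cultured libraries they were far higher. The member that fell was the myosin kinase gene Mylk, at 212 and 193 CPM in FH and 102 and 62.4 CPM in BM 3W Yap-/- (-1.30 ± 0.34, adjusted p = 0.0105), a call lost without BM 3W Yap-/- 2 (adjusted p = 0.0936), without FH 1 (0.0581), under total counts (0.128) and with FPKM.

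Genes known as YAP and TEAD targets rose in part even with Yap1 low. Among 31 members with a test, 13 did not pass, 17 rose and 1 fell (median 2.28). Ctgf, the matricellular protein most used as a YAP readout, was at 1.91 and 1.66 CPM in FH and 133 and 151 CPM in BM 3W Yap-/-, a log2 change of 6.31 ± 0.74 (adjusted p = 0.000149). Ankrd1, a nuclear and sarcomeric ankyrin-repeat protein, was at 0.477 and 0.317 CPM in FH and 48.1 and 40.1 CPM in BM 3W Yap-/- (6.77 ± 0.99, adjusted p = 0.000454). Tgfb2, a ligand of TGF-beta receptors, was at 0 and 0.396 CPM in FH and 74.1 and 55.4 CPM in BM 3W Yap-/- (8.31 ± 0.98, adjusted p = 0.000153). These 3 went from few or no reads to clear expression in both cultured libraries.

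Thbs1, thrombospondin, was at 0.318 and 0.317 CPM in FH and 27 and 16.4 CPM in BM 3W Yap-/- (6.07 ± 0.84, adjusted p = 0.000335), and Ajuba, an adaptor that restrains Hippo kinases, at 5.73 and 4.27 CPM in FH and 27 and 44.3 CPM in BM 3W Yap-/- (2.83 ± 0.36, adjusted p = 0.000214). Cyr61, another common readout, was at 14.9 and 12.7 CPM in FH and 68.3 and 66.9 CPM in BM 3W Yap-/-. It did not pass (2.29 ± 0.87, adjusted p = 0.0566) but passed in 9 alternatives, and its groups did not overlap, as with most genes tested. Amotl2, a YAP-binding scaffold, was at 49.7 and 54.7 CPM in FH and 65 and 64 CPM in BM 3W Yap-/- (0.30 ± 0.20, adjusted p = 0.236) and passed with FPKM or total counts. Of these readouts of YAP activity, Ctgf and Ankrd1 were past the threshold and Cyr61 and Amotl2 short of it. Whether their changes differ from each other was not tested.

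Among the TEAD factors, Tead1 was at 12.4 and 11.7 CPM in FH and 60.2 and 39.8 CPM in BM 3W Yap-/- (2.05 ± 0.39, adjusted p = 0.0022), with both cultured libraries above both fresh ones. Tead2 was at 0.239 and 0.158 CPM in FH and 7.92 and 7.54 CPM in BM 3W Yap-/- (5.24 ± 1.23, adjusted p = 0.00645), a call lost without FH 2 (adjusted p = 0.0583). Tead3 was at 10.8 and 9.89 CPM in FH and 8.21 and 11.1 CPM in BM 3W Yap-/-, with overlapping groups (-0.10 ± 0.27, adjusted p = 0.798).

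Promoters of Ankrd1 and Acta2 are shown because both genes rose and both windows hold GGAATG, a core of the TEAD binding sequence, in capitals. Ankrd1 (chr19:36119845-36120094, minus strand) holds it 210 and 123 bases before the start, and Acta2 (chr19:34255374-34255623, minus strand) 146 bases before it.
Ankrd1: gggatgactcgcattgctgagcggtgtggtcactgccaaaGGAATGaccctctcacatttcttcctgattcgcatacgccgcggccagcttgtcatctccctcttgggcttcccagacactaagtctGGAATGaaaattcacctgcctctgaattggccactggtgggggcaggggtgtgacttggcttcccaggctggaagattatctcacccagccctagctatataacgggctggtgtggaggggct
Acta2: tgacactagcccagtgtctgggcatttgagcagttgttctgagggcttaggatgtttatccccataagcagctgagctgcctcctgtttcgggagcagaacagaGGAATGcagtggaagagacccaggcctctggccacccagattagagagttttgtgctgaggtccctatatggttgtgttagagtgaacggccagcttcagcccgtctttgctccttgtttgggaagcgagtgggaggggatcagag
GGAATG or its reverse complement is in 14.7% of all windows of 300 bases and in 9 of the 22 windows of the YAP and TEAD list. It is in 4 of the 12 windows of members that rose and in 5 of the 10 of members that did not pass. Acta2 is not on that list but on the actin list, where 13 of 50 windows hold it. There it is in 10 of the 39 windows of members that rose, 2 of the 10 of members that did not pass and the 1 of the member that fell.

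Matrix genes rose too. Of 64 matrix and mesenchymal genes tested, 42 rose and 3 fell (median 3.01). Nid1, nidogen of basement membranes, was at 6.92 and 4.75 CPM in FH and 367 and 229 CPM in BM 3W Yap-/- (5.68 ± 0.50, adjusted p = 3.32e-05). Col1a1, the main chain of fibrillar collagen, was at 0.477 and 0.871 CPM in FH and 40.9 and 43.1 CPM in BM 3W Yap-/- (5.95 ± 0.82, adjusted p = 0.00033), and Fbn1, fibrillin, at 1.51 and 1.27 CPM in FH and 28.2 and 17.7 CPM in BM 3W Yap-/- (4.04 ± 0.48, adjusted p = 0.000161). Timp2, an inhibitor of matrix proteases, was at 1.91 and 2.22 CPM in FH and 28.6 and 23.3 CPM in BM 3W Yap-/- (3.65 ± 0.35, adjusted p = 5.18e-05). All 4 were above fresh levels in each cultured library.

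p53 targets rose. Of 24 tested, 17 rose and 3 fell (median 2.05, or 1.95 at the bound). Cdkn1a, the cell cycle inhibitor p21, was at 1.75 and 1.5 CPM in FH and 171 and 165 CPM in BM 3W Yap-/- (6.69 ± 0.51, adjusted p = 1.65e-05), and at 26.8 and 26.9 CPM in FH Yap-/-. Tnfrsf10b, a death receptor, was at 0.0795 and 0.396 CPM in FH and 30.1 and 24.5 CPM in BM 3W Yap-/- (6.81 ± 0.69, adjusted p = 6.35e-05), and Zmat3, a zinc finger protein, at 7.32 and 8.15 CPM in FH and 48.5 and 49.6 CPM in BM 3W Yap-/- (2.67 ± 0.29, adjusted p = 9.31e-05). Cdkn1a was thus already above FH in the fresh Yap-/- libraries and higher again in culture.

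NRF2 targets, the genes of the oxidative stress response, rose in 14 of 29 and fell in 1 (median 1.44), with 22 to 23 rises under total counts or filtered FPKM. G6pdx, which feeds NADPH, was at 3.58 and 2.61 CPM in FH and 85 and 68.7 CPM in BM 3W Yap-/- (4.63 ± 0.30, adjusted p = 6.17e-06), and Pgd, the next enzyme of that pathway, at 41.9 and 34.7 CPM in FH and 375 and 356 CPM in BM 3W Yap-/- (3.25 ± 0.41, adjusted p = 0.00022). Both were several times higher in each cultured library.

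Proliferation genes rose in about the share of all genes (22.2%) and fell in a smaller one than all genes (17.7%). Among 43 with a test, 32 did not pass, 10 rose and 1 fell (median 1.50). Mki67, the marker of cycling cells, was at 1.35 and 1.58 CPM in FH and 8.6 and 4.68 CPM in BM 3W Yap-/- (2.17 ± 1.08, adjusted p = 0.132), while Ccnd2, a cyclin of early cell cycle entry, was at 1.83 and 3.48 CPM in FH and 84.5 and 65.6 CPM in BM 3W Yap-/- (4.82 ± 0.65, adjusted p = 0.000297). The number of rises ran from 3 (without FH 2) to 19 (compared libraries alone), with 5 without BM 3W Yap-/- 1, 6 without BM 3W Yap-/- 2 and 4 without FH 1.

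Fetal liver and growth genes rose in 14 of 24 and fell in 3 (median 2.90, or 2.68 at the bound). Afp, the fetal counterpart of albumin, was at 1.91 and 2.22 CPM in FH and 247 and 257 CPM in BM 3W Yap-/- (6.93 ± 1.00, adjusted p = 0.000436). Pkm, the pyruvate kinase of growing cells, was at 3.98 and 4.35 CPM in FH and 164 and 179 CPM in BM 3W Yap-/- (5.37 ± 0.41, adjusted p = 1.74e-05), and Igdcc4, an immunoglobulin-domain receptor, at 0.159 and 0.0791 CPM in FH and 51.7 and 41.2 CPM in BM 3W Yap-/- (8.53 ± 0.75, adjusted p = 3.48e-05). Both cultured libraries were above both fresh ones in all 3. Igfbp2, an IGF-binding protein, fell from 569.9 and 608 to 5.05 and 5.18 CPM (-6.85 ± 0.66, adjusted p = 5.37e-05).

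Clock genes fell in 13 of 20 and rose in 2 (median -1.23). Dbp, a rhythmic output factor, was at 129.7 and 134 CPM in FH and 1.9 and 2.31 CPM in BM 3W Yap-/- (-5.97 ± 0.70, adjusted p = 0.000147), and Per3 at 93.7 and 95 CPM in FH and 11.5 and 10.7 CPM in BM 3W Yap-/- (-3.08 ± 0.30, adjusted p = 5.48e-05). Arntl, which drives these genes, was at 1.43 and 2.22 CPM in FH and 18.6 and 13.4 CPM in BM 3W Yap-/- (3.13 ± 0.37, adjusted p = 0.000157), in the opposite direction. The falls numbered 7 with FPKM, 8 under total counts and 8 without BM 3W Yap-/- 2 or without FH 2. The labels give no time of day.

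Lipid synthesis was split. Under TMM, 15 of 39 cholesterol and fatty acid synthesis genes fell and 4 rose (median -0.28), but under total counts 8 fell and 11 rose, and with FPKM 7 to 9 fell and 11 to 14 rose. Without BM 3W Yap-/- 2, 8 fell and 3 rose. Scd2, a desaturase of non-hepatic tissues, was at 2.94 and 0.871 CPM in FH and 847 and 771 CPM in BM 3W Yap-/- (8.72 ± 0.79, adjusted p = 4.02e-05), and Fasn, fatty acid synthase, at 298 and 289 CPM in FH and 1249.6 and 1219 CPM in BM 3W Yap-/- (2.07 ± 0.37, adjusted p = 0.00152), with 2139 and 2093 CPM in FH Yap-/-. Fads2, a desaturase of polyunsaturated fats, was at 844 and 836 CPM in FH and 163 and 105 CPM in BM 3W Yap-/- (-2.65 ± 0.36, adjusted p = 0.000303). Against FH the list as a whole therefore has no direction that holds under the scalings tried. Under TMM, 24 of the 39 fell and 1 rose in BM 3W Yap-/- against FH Yap-/- (median -1.679). In FH Yap-/- against FH, 7 rose and 0 fell (median 1.135). Both of these comparisons hold the Y-linked difference.

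**Figure D4:**
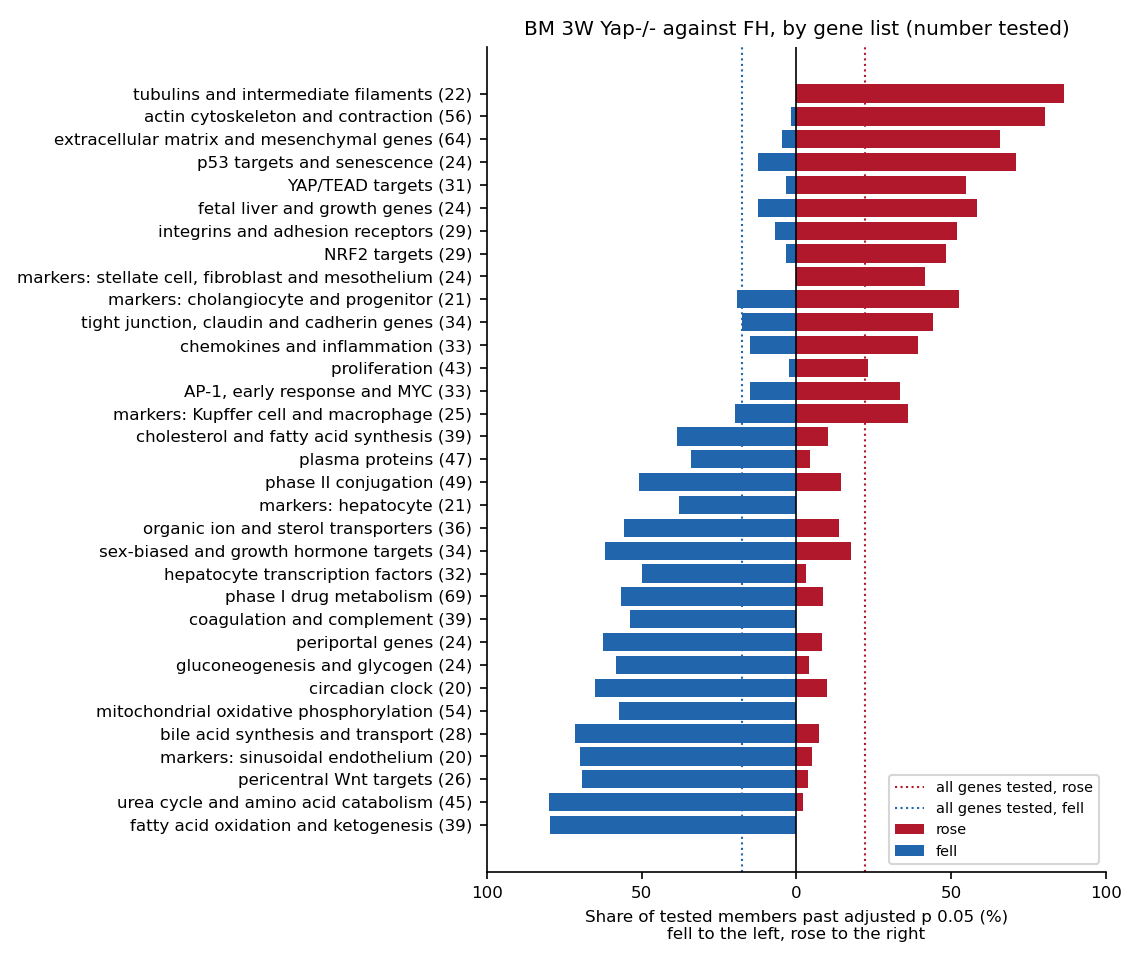
Share of tested members of each gene list that rose (right) or fell (left) in BM 3W Yap-/- against FH, in percent, with the number tested in brackets; dotted lines mark the shares over all genes, 22.2% and 17.7%. Tubulin and actin lists lie at the rising end, fatty acid oxidation and urea cycle at the falling end.

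Markers of other cell types moved with these groups. The shares over all genes tested, 22.2% risen and 17.7% fallen, stand beside each count of markers below. In bulk RNA, fewer cells of a type and less RNA per cell cannot be told apart. Hepatocyte markers summed to 314400.0 and 311200.0 CPM in FH and 193100.0 and 177000.0 CPM in BM 3W Yap-/-, and 8 of 21 fell. That number was 5 without any single library and 16, with 2 rises, with the compared libraries alone. Alb made up 93191 and 78189.5 CPM of the sum in culture. The median log2 fold change over members was -1.40, and 17 of 21 lay below FH without overlap and 2 above it. Over all 14100 genes tested, 4899 lay below FH without overlap and 5989 above it.

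Stellate cell, fibroblast and mesothelial markers summed to 189 and 155 CPM in FH and 649 and 554 CPM in BM 3W Yap-/-, where 10 of 24 tested rose and 0 fell (median 1.31, or 1.00 at the bound); without FH 2 the rises numbered 6. Acta2 and Tagln are on this list and on the actin list. Des, desmin, was at 0.557 and 0 CPM in FH and 15.1 and 18.8 CPM in BM 3W Yap-/- (5.90 ± 0.79, adjusted p = 0.000285), and Pdgfrb, the PDGF receptor of pericytes, at 2.39 and 1.42 CPM in FH and 13.1 and 13.1 CPM in BM 3W Yap-/- (2.78 ± 0.45, adjusted p = 0.000819). Lrat, a defining stellate cell gene, was at 6.6 and 6.01 CPM in FH and 3.5 and 2.41 CPM in BM 3W Yap-/- (-1.09 ± 0.91, adjusted p = 0.365), and Reln at 37.9 and 30.4 CPM in FH and 44.6 and 27 CPM in BM 3W Yap-/- (0.07 ± 0.76, adjusted p = 0.96). Wt1 was at 0 and 0 CPM in FH and 0.0972 and 0.251 CPM in BM 3W Yap-/- and Thy1 at 0.239 and 0.0791 CPM in FH and 0 and 0.101 CPM in BM 3W Yap-/-, at or near 0. The part of these cells in the rises of matrix and actin genes was not tested.

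Macrophage markers summed to 324 and 249 CPM in FH and 573 and 618 CPM in BM 3W Yap-/-, with 9 of 25 risen and 5 fallen (median 0.80); without FH 2 these were 5 and 3. Lyz2, lysozyme, was at 20.6 and 9.65 CPM in FH and 145 and 197 CPM in BM 3W Yap-/- (3.50 ± 0.74, adjusted p = 0.00362), and Cd14 at 1.03 and 0.95 CPM in FH and 41.5 and 54.9 CPM in BM 3W Yap-/- (5.59 ± 0.46, adjusted p = 2.46e-05). Clec4f, which marks resident Kupffer cells, was at 27.3 and 17.1 CPM in FH and 0.729 and 1.21 CPM in BM 3W Yap-/- (-4.51 ± 0.65, adjusted p = 0.000603), and Csf1r, the macrophage growth factor receptor, at 20.9 and 14.5 CPM in FH and 13.2 and 16.1 CPM in BM 3W Yap-/- (-0.27 ± 0.28, adjusted p = 0.462). Lyz2 and Cd14 thus rose while Clec4f fell. Over all genes tested, 22.2% rose and 17.7% fell. The falls of this list were near that share, as were its rises without FH 2. Their part in the rises above was not tested.

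Endothelial markers summed to 246 and 198 CPM in FH and 124 and 124 CPM in BM 3W Yap-/-, with 14 of 20 fallen and 1 risen (median -5.93, or -5.44 at the bound). The falls numbered 8 without BM 3W Yap-/- 2 and 6 to 9 with FPKM. Ptprb was at 38.8 and 31.6 CPM in FH and 0.0972 and 0.101 CPM in BM 3W Yap-/- (-8.39 ± 1.19, adjusted p = 0.00039), and Clec4g, a lectin of sinusoids, went from 12.3 and 8.55 CPM to 0 counts (at least 70.4-fold lower). For these 2 genes nearly all reads were in the fresh libraries, so the sum in culture came almost wholly from other members. Of the 20, 15 lay below FH without overlap and 5 above it, beside 4899 below and 5989 above among all 14100 genes tested.

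Cholangiocyte and progenitor markers summed to 227 and 218 CPM in FH and 689 and 566 CPM in BM 3W Yap-/-, with 11 of 21 risen and 4 fallen (median 2.75, or 2.30 at the bound). The rises numbered 7 without FH 1 and 6 without FH 2. Cd24a, a surface protein of progenitors, was at 0.398 and 0.871 CPM in FH and 338 and 259 CPM in BM 3W Yap-/- (8.86 ± 1.45, adjusted p = 0.000902), and Krt7, a keratin of bile ducts, at 0.239 and 0 CPM in FH and 8.07 and 9.56 CPM in BM 3W Yap-/- (6.14 ± 1.09, adjusted p = 0.00144). Spp1, osteopontin, was at 25.2 and 21.8 CPM in FH and 75.2 and 67.5 CPM in BM 3W Yap-/- (1.60 ± 0.64, adjusted p = 0.0666) and did not pass. Sox9 was at 3.66 and 3.01 CPM in FH and 21.6 and 11.3 CPM in BM 3W Yap-/- (2.30 ± 0.60, adjusted p = 0.011), and lost its call without BM 3W Yap-/- 1, FH 1 or FH 2 (adjusted p = 0.0568 to 0.0862). Erythroid and neutrophil markers summed to 170.3 and 171 CPM in FH and 0.194 and 0.302 CPM in culture, and lymphocyte markers to 2.39 and 2.69 CPM and 0 and 0.201 CPM.

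BM 3W, cultured for the same time without the Yap-/- label, was set beside these values. BM 3W against FH called more genes, 4653 rises (33.0%) and 3675 falls (26.1%). It shares the FH libraries with the main comparison, so only each comparison's own values are set side by side. A direct test of BM 3W Yap-/- against BM 3W gave 2117 genes higher in BM 3W Yap-/- (15.0%) and 2342 lower (16.6%). Under total counts 13.6% of these calls were higher, against 47.5% under TMM. The number of calls fell to 1938 without BM 3W Yap-/- 2, 2639 without BM 3W 1 and 2383 without BM 3W 2.

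Matrix genes were mostly lower without Yap in that direct test. Of 64 tested, 51 were lower in BM 3W Yap-/- than in BM 3W and 1 higher (median -3.59), and the medians against FH were 3.01 without Yap and 7.15 with it. Col1a1 was at 40.9 and 43.1 CPM without Yap against 2092 and 4165 in BM 3W, a log2 difference of -6.22 ± 0.76 (adjusted p = 0.000449). Spp1 was at 75.2 and 67.5 and 4338 and 5038 CPM (-6.04 ± 0.77, adjusted p = 0.000517), and Thbs1 at 27 and 16.4 and 673 and 1205 CPM (-5.43 ± 0.69, adjusted p = 0.000512). Mmp12, the macrophage elastase, was at 0.146 and 0.704 and 1042 and 411 CPM (-10.73 ± 1.13, adjusted p = 0.000224). Mesenchymal and macrophage marker sums moved with them, at 649 and 554 CPM against 5569 and 3400.0 for the former and 573 and 618 CPM against 4276 and 4853 for the latter. The part of these cells in the matrix difference was not tested.

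YAP and TEAD targets were lower without Yap in 18 of 31 and higher in 0. Ctgf was at 133 and 151 CPM against 719 and 902 in BM 3W (-2.51 ± 0.60, adjusted p = 0.0104), a call lost without BM 3W Yap-/- 1 (adjusted p = 0.0663) or BM 3W Yap-/- 2 (0.0700). Acta2 and Tagln, which are on the actin list and not on this one, were lower as well. Acta2 was at 105 and 85.6 against 816 and 626 CPM (-2.92 ± 0.50, adjusted p = 0.0021), and Tagln at 67.2 and 71.9 against 436 and 458 CPM (-2.68 ± 0.26, adjusted p = 0.000177). Tgfb2, at 74.1 and 55.4 against 86 and 95.5 CPM, did not pass (-0.49 ± 0.61, adjusted p = 0.566). These genes lay between fresh cells and BM 3W in level, but for Tgfb2 the test did not tell the 2 cultures apart.

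Tubb2a and Tubb4b were higher without Yap. Tubb2a was at 381 and 627 CPM without Yap against 73.4 and 93 in BM 3W (2.60 ± 0.31, adjusted p = 0.00039), and Tubb4b at 571 and 765 and 139 and 149 CPM (2.21 ± 0.29, adjusted p = 0.000627). Over the tubulin and filament list 4 were higher, 6 lower and 12 did not pass. Cdkn1a, at 171 and 165 and 153 and 202 CPM (-0.08 ± 0.38, adjusted p = 0.889), and S100a11, at 291 and 244 and 267 and 260.4 CPM (0.02 ± 0.56, adjusted p = 0.984), had overlapping groups and did not pass.

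Hepatocyte functions were higher without Yap for many lists. Urea cycle and amino acid genes were higher in 37 of 45 and lower in 2, coagulation and complement in 25 and 0 of 39, and plasma proteins in 32 and 1 of 47. Ass1 was at 1068 and 979 CPM against 41.1 and 16.1 (5.16 ± 0.60, adjusted p = 0.000349), Cps1 at 3136 and 2691 against 72.5 and 9.07 (6.16 ± 0.96, adjusted p = 0.00133), and Serpina1b at 7653 and 6882 against 1234 and 357 (3.19 ± 0.62, adjusted p = 0.00388). Hnf4a was at 742 and 589.5 against 201 and 135 CPM (1.98 ± 0.32, adjusted p = 0.00164), and Cyp3a11 at 6038 and 4784 against 30.5 and 11.6 (8.01 ± 1.20, adjusted p = 0.00112). The BM 3W libraries are uneven here, with Alb at 29183 and 2849.8 CPM against 93191 and 78189.5 in BM 3W Yap-/-. That difference did not pass (2.42 ± 1.12, adjusted p = 0.119) but did without BM 3W 1 (adjusted p = 0.00713).

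Pericentral genes were split, with 12 of 26 lower in BM 3W Yap-/- than in BM 3W, 9 higher and 5 not passed. The summed CPM of the list was higher, at 6635 and 8717 against 969 and 972 in BM 3W. Slc1a2, Lgr5 and Lect2, given next, are all from the lower members. Slc1a2 was at 0.194 and 0.302 CPM against 3.5 and 4.64 (-4.01 ± 0.38, adjusted p = 0.00016), and Lgr5 at 0.146 and 0.151 against 2.09 and 0.809 (-3.23 ± 0.64, adjusted p = 0.0049). Lect2 was at 3.84 and 3.57 against 40.6 and 17.4 CPM (-2.97 ± 0.47, adjusted p = 0.0015), and Igf1, on the periportal list, at 0.923 and 0.604 against 58.6 and 74.7 CPM (-6.43 ± 0.97, adjusted p = 0.00113). For each of these 4 genes both BM 3W Yap-/- libraries lay below both BM 3W libraries. Cyp7a1, at 0.535 and 0.302 and 1.1 and 0.0898 CPM, and Ces3b, at 0.243 and 0.201 and 0.0686 and 0.12 CPM, were near 0 in both cultures, and the tests did not separate them (-0.46 ± 1.45, adjusted p = 0.831 and 1.17 ± 1.41, adjusted p = 0.552).

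**Figure D5:**
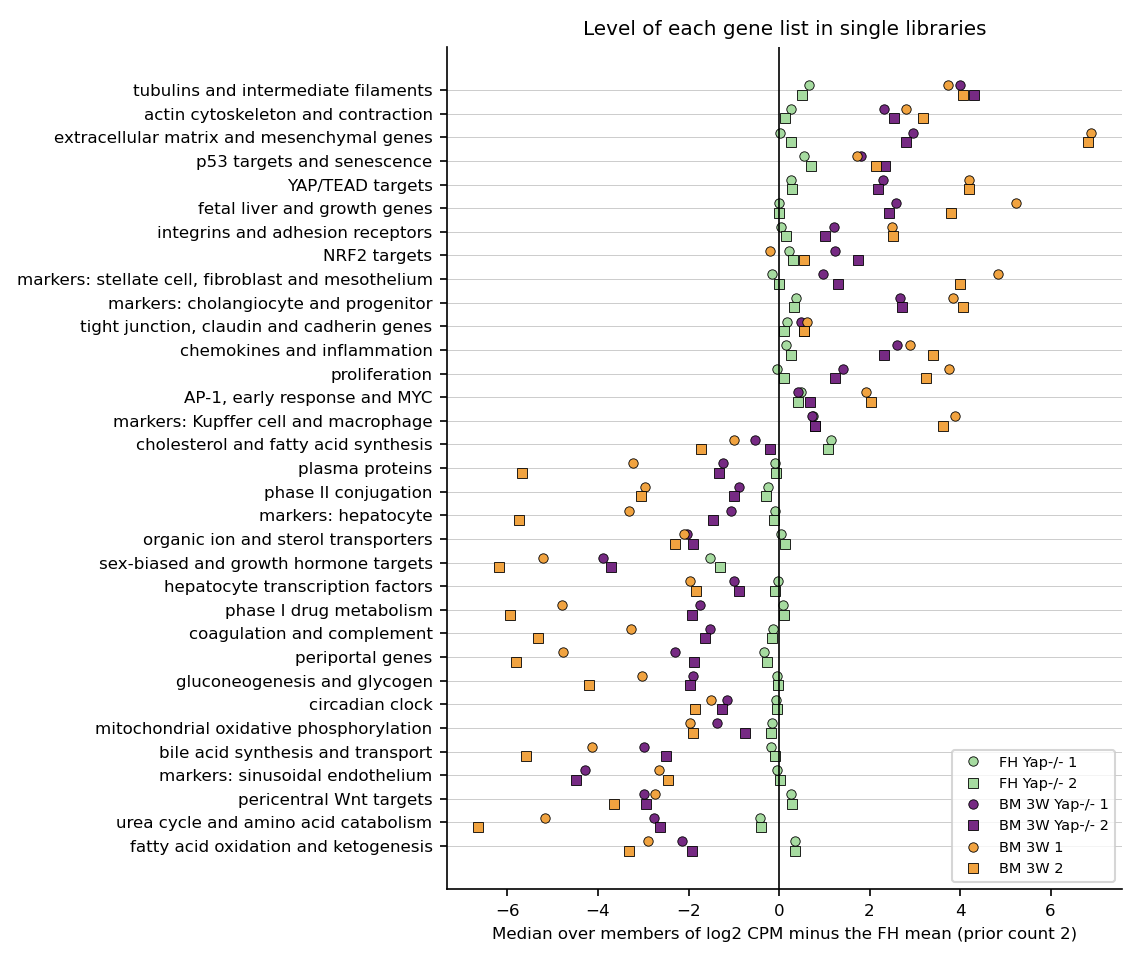
Median over the members of each gene list of log2 CPM (prior count 2) minus the FH mean, for single libraries of 3 groups, circles for replicate 1 and squares for replicate 2. BM 3W Yap-/- libraries lie closer to FH than BM 3W libraries for matrix, plasma protein and urea cycle lists, and at similar places for pericentral and tubulin lists.

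Against fresh cells of the same label, BM 3W Yap-/- had 2793 rises (19.8%) and 2327 falls (16.5%) relative to FH Yap-/-, with the Y-linked difference between these groups in the way. Without FH Yap-/- 1 the calls numbered 2884 in all, without FH Yap-/- 2 2857 and without BM 3W Yap-/- 2 3305. Ctgf had a log2 fold change of 6.65 ± 0.76 (adjusted p = 0.000155), Cyp2e1 of -13.26 ± 1.83 (adjusted p = 0.000423), Pck1 of -9.41 ± 1.06, adjusted p = 0.000148 and Igf1 of -10.92 ± 1.14 (adjusted p = 9.45e-05). The comparison with FH shares the cultured libraries, and there these values were 6.31, -13.51, -9.77 and -10.96. Cyp3a11 had a log2 fold change of -0.08 ± 0.88 (adjusted p = 0.957) here, its level in FH Yap-/- being close to that in culture. FH Yap-/- against FH called 69 rises (0.489%) and 64 falls (0.454%), again with the Y-linked difference. Cdkn1a was among the rises (4.04 ± 0.47, adjusted p = 0.00272), a call lost without FH 1 (adjusted p = 0.0544) or FH 2 (0.0790). The number of calls was 13 to 22 without single libraries, 4251 with the compared groups alone and 522 without the BM 1D, BM 3D and LBDXL 3W groups. It was lowest without FH Yap-/- 2, with 17 without FH Yap-/- 1, 21 without FH 1 and 22 without FH 2.

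The interaction compares the change from FH Yap-/- to BM 3W Yap-/- with that from FH to BM 3W, and mixes genotype with the Y-linked difference. It called 1133 genes as positive (8.04%) and 1247 as negative (8.84%), with 14.3% positive under total counts against 47.6% under TMM. Negative values, meaning a smaller rise or larger fall without Yap, were found for 35 of 64 matrix genes and positive ones for 0. Urea cycle and amino acid genes were positive in 30 of 45 and negative in 0. Col1a1 had an interaction of -8.13 ± 1.06 (adjusted p = 0.00157), and Cps1 of 7.02 ± 1.19 (adjusted p = 0.00481). The number of calls lay between 800 (without FH Yap-/- 2) and 1805 without single libraries. It was 1120 without BM 3W Yap-/- 2, 1323 without BM 3W 2, 875 without FH Yap-/- 1, 990 without FH 1 and 840 without FH 2.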

How the data were processed

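Poly(A) RNA of 14 mouse libraries in 7 groups of 2 was sequenced as stranded paired-end libraries, per the labels. The authors deposited a table of raw read counts and a table of FPKM values, each of 21878 genes. Per the submitters' processing notes, Trimmomatic, HISAT2, HTSeq, Cufflinks and DESeq were used with GRCm38.p6; versions, and whether counting used strand, are not given in the sources used here, so overlapping antisense genes cannot be told apart. Of these genes, 4326 had no count in any library, and 27 symbols changed by a spreadsheet were restored. RefSeq tables matched 21727 names, and 17267 named rows had a promoter window.

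The counts were fitted with edgeR 4.0.16 in R 4.3.3 (filterByExpr, TMM, quasi-likelihood test) over all 14 libraries, with Benjamini-Hochberg adjustment over the 14100 genes left. Depth ran from 15501005 to 21220365 counts. The standard error was the log2 fold change divided by the square root of F. Alternatives were DESeq2 1.42.0, other size factors, no filter, the compared groups alone, a replicate block, a fold limit of 1 on the log2 scale, removal of the 20 most abundant genes, each library left out, and limma 3.58.1 on log2 FPKM with pseudocounts of 1 and 0.1 and a mean FPKM of at least 0.5. A fit without the BM 1D, BM 3D and LBDXL 3W groups was added after seeing the data. The fitting code was tested on simulated data.

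The comparison, gene lists and tests were chosen with earlier results of these data known. A gene could be named if it was on a fixed panel, among the 12 largest rises or falls against FH, among the 5 smallest p-values of a list or against its list's majority, a cell type marker, or among the 8 largest differences from BM 3W in either direction. Among genes so allowed, those whose calls held under the alternatives were preferred after their values were seen. Some items are not reported here.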

Additional observations from a re-analysis of the deposited data

Results flagged for a closer look

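For 13 of the 33 genes on the fixed panel, the change from fresh to 3-week cultured cells differed between libraries labelled Yap-/- and those without that label. The measure was the interaction term of edgeR's test. Only the panel was looked at here, and over all 14100 genes that term was called positive for 1133 (8.04%) and negative for 1247 (8.84%). FH Yap-/- has no Y-linked RNA beyond 1 count, so genotype and that difference cannot be told apart in any of these values.

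For 6 genes the culture change was positive in both comparisons and smaller without Yap. The interaction was -8.13 ± 1.06 (adjusted p = 0.00157) on the log2 scale for Col1a1, -5.74 ± 0.94 (adjusted p = 0.0041) for Spp1 and -4.12 ± 0.60 (adjusted p = 0.0023) for Cdkn1a. It was -4.36 ± 1.25 (adjusted p = 0.0377) for Acta2, -2.99 ± 0.81 (adjusted p = 0.0298) for Vim and -2.70 ± 0.54 (adjusted p = 0.00935) for Tead1. For Cdkn1a the culture change was 2.64 from FH Yap-/- and 6.77 from FH, its level in FH Yap-/- being 26.8 and 26.9 CPM against 1.75 and 1.5 CPM in FH. Yap1, the targeted gene, had an interaction of -1.71 ± 0.27 (adjusted p = 0.00314).

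For the other 6 the culture change was negative in both comparisons and smaller in size without Yap. From FH Yap-/- it was -0.08 for Cyp3a11, -0.53 for Cyp1a2 and -0.57 for Hnf4a, against -5.52, -6.14 and -2.66 from FH. For Cyp3a11 the change without Yap did not pass, and its level in FH Yap-/- lay above that in FH. The interaction was 7.02 ± 1.19 (adjusted p = 0.00481) for Cps1, 4.85 ± 1.17 (adjusted p = 0.0191) for Pck1 and 2.32 ± 0.42 (adjusted p = 0.00604) for Arg1. It was 5.61 ± 1.74 (adjusted p = 0.0488) for Cyp1a2, 5.44 ± 1.33 (adjusted p = 0.0198) for Cyp3a11 and 2.09 ± 0.44 (adjusted p = 0.0116) for Hnf4a. Pck1 still fell by 9.41 from FH Yap-/- to BM 3W Yap-/-, against a change of -14.25 from FH to BM 3W. Calls for Vim, Acta2, Cyp1a2, Pck1, Cyp3a11 and Hnf4a were lost without single libraries, and those for Cyp1a2 and Pck1 also under other scalings or with FPKM.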

How the results depend on the processing

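BM 3W Yap-/- against FH called 5632 genes and kept within 1.5 times of that in the other alternatives, with 3336 to 4551 calls when single libraries were left out. Against FH Yap-/- the 5120 calls became 2857 to 4004 without single libraries. Against BM 3W the 4459 calls became 1938 to 3218 without single libraries, 7098 with unfiltered FPKM and 6882 without the BM 1D, BM 3D and LBDXL 3W groups. FH Yap-/- against FH had 133 calls, 13 to 22 without single libraries, 369 with DESeq2, 4251 with the compared groups alone, 269 with unfiltered FPKM and 522 without those 3 groups. The interaction had 2380 calls, 800 to 1805 without single libraries, 4551 with the compared groups alone, which is also the fit without those 3 groups, 4061 and 4244 with FPKM at pseudocounts of 0.1 and 1, and 5532 with unfiltered FPKM. BM 3W against FH stayed within 1.5 times of 8328. Cholesterol and fatty acid synthesis changed direction, with 9 falls for FPKM at either pseudocount, 7 for unfiltered FPKM and 8 for total counts. Left out libraries leave 1 sample in a group, which is assumed to vary like the other groups. The causes were not tested. The labels tie replicate numbers to no shared animal or batch. The correlation of deviations of same-numbered libraries was 0.0288 between BM 3W Yap-/- and FH and 0.00572 between BM 3W Yap-/- and FH Yap-/-. It was 0.311 between BM 3W Yap-/- and BM 3W, and up to 0.461 between other groups (BM 1D and BM 3D). The source of these larger values was not tested. As the labels give no pairs, the numbers were not taken as pairs. With the replicate block the main comparison called 6057 genes, and BM 3W Yap-/- against BM 3W called 4969.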

Other observations

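Cell adhesion and inflammation lists, tested in BM 3W Yap-/- against FH, add to the picture. Of 34 tight junction, claudin and cadherin genes, 15 rose and 6 fell (median log2 fold change 0.47), with 9 and 3 without FH 1 and 7 and 3 without FH 2. Cldn4, a claudin of ducts and other epithelia, had 0 counts in FH and was at 13.6 and 22.5 CPM in BM 3W Yap-/- (at least 75.7-fold higher). Of 29 integrins and adhesion receptors, 15 rose and 2 fell (median 1.06), with 9 and 2 without FH 2. Itga3, a laminin-binding integrin, was at 7.0 and 8.39 CPM in FH and 100.2 and 94.2 CPM in BM 3W Yap-/-, a log2 fold change of 3.66 ± 0.46 (adjusted p = 0.000197). Of 33 chemokine and inflammation genes, 13 rose and 5 fell (median 2.67), and of 33 early response genes 11 rose and 5 fell (median 0.43). Over all genes tested, 22.2% rose and 17.7% fell. The falls in the tight junction, inflammation and early response lists were near that share.

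Sex-biased and growth hormone-dependent genes fell in 21 of 34 and rose in 6 (median -4.03). Sult2a1, a female-biased sulfotransferase, had 0 counts in FH, 186 and 213 CPM in FH Yap-/- and 183 and 300.0 in BM 3W Yap-/-. BM 3W libraries held 0.103 and 0.0898 CPM. Its level in BM 3W Yap-/- was at least 1014-fold that in FH. Both Yap-/- groups were thus high. Of the 2, FH Yap-/- lacks Y-linked RNA and BM 3W Yap-/- holds it. The source of the Sult2a1 difference was not tested. The labels give no sex.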
